A study of Mus musculus with 2 samples.

Results

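CD8 T cells with transcripts of the granzyme genes Gzmc or Gzmf were described in immune cells from mouse brains bearing GL261 glioma. A cell barcode entered if it had at least 200 genes, at most 10% mitochondrial unique molecular identifiers (UMIs, each standing for 1 captured RNA molecule), at least 1 UMI of Cd3d, Cd3e or Cd3g, and at least 1 of Cd8a or Cd8b1. It could have no Cd4 or Foxp3 UMI, no more than 2 each of the macrophage genes Lyz2 and C1qb, and no more than 1 of the cycling genes Mki67, Top2a and Birc5. A cell with at least 2 UMIs of Gzmc and Gzmf together was called positive, and a cell of the same gate with 0 was the comparison, called a zero cell. The rule found 76 positive cells of 1595 gated CD8 cells and 12478 barcodes in all, 33 from wild-type mice and 43 from the library labelled Fcgr2b knockout, called the library labelled knockout from here on. Zero cells numbered 369 and 1055. The members were chosen on Gzmc and Gzmf, so those values are given as a description only.

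The study compared immune cells from wild-type mice and from mice labelled Fcgr2b knockout. The gene encodes the inhibitory Fc gamma receptor IIB. Both groups were inoculated with 100000 GL261 cells, a mouse glioma line, and both received 200 µg of an anti-PD-1 antibody by intraperitoneal injection on days 10, 13 and 16. On day 20, brain cells from 5 brains per group were pooled, sorted as CD45.2-positive and negative for the dead-cell dye 7-AAD, and made into 1 Chromium 5' library per genotype, with 10000 cells targeted. No group went without anti-PD-1, and the labels give neither strain nor age. The molecule field reads polyA RNA for wild-type cells and total RNA for the other group under 1 protocol text, which calls the sorted cells lung cells although the tissue fields say brain. What this adds to differences between the libraries was not tested. With 1 pooled library per genotype there is no replicate, so no test between genotypes or between classes was run. Intervals below are 95% intervals, and they cover counting error only.

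CD8 T cells kill target cells by releasing granules that hold perforin, which opens the target membrane, and granzymes, serine proteases that enter and cleave proteins of the target. Granzyme B cleaves after aspartate and sets off cell death, and granzyme A is a tryptase-like protease. In the mouse, Gzmc, Gzmd, Gzme, Gzmf, Gzmg and Gzmn lie beside Gzmb in a cluster on chromosome 14. These genes are known from strongly stimulated cytotoxic T cells and NK cells and have few counterparts in humans.

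The sequences before the transcription start of the clustered genes are shown because the 2 genes of the rule, and the neighbours counted with them, sit side by side and resemble each other. They are the 200 bases upstream of the RefSeq start in GRCm38.p6, read 5′ to 3′ on the gene's strand. Capitals mark a cyclic AMP response element (TGACGTCA), a RUNX motif (AACCACA) or an AP-1 motif (TGACTCA), each searched on both strands, so that a match on the opposite strand reads as its reverse complement.

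Gzmc, chr14:56234658-56234857, minus strand: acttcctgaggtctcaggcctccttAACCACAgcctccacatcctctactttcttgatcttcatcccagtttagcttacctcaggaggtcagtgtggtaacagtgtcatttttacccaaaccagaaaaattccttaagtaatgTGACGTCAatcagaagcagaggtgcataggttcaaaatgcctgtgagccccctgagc

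Gzmf, chr14:56211408-56211607, minus strand: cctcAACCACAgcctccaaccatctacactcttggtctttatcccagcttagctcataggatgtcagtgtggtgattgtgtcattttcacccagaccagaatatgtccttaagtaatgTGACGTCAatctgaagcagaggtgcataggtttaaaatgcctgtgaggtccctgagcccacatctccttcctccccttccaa

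Gzmd, chr14:56132594-56132793, minus strand: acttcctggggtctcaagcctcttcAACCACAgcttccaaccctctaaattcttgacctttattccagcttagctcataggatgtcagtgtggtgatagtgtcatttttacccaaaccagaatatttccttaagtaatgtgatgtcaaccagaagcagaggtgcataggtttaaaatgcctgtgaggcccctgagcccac

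Gzmg, chr14:56159580-56159779, minus strand: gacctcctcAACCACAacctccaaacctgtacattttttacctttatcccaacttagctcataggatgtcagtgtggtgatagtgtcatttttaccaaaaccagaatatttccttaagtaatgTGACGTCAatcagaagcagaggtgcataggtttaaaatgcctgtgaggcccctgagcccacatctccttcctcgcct

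Gzme, chr14:56120626-56120825, minus strand: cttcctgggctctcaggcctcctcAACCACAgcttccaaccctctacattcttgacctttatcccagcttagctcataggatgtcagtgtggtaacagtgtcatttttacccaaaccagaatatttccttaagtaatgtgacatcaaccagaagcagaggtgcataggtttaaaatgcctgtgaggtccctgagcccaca

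Gzmb, chr14:56262335-56262534, minus strand: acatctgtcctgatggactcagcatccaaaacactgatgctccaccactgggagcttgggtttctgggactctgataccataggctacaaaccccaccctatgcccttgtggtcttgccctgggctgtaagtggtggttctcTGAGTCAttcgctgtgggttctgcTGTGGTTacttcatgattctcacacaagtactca

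TGACGTCA stood at -57 in Gzmc, at -82 in Gzmf and at -77 in Gzmg, counted back from the start. It was not in the windows of Gzmd, Gzme, Gzmb, Gzmn, Gzma or Gzmk, and 483 of 32851 RefSeq promoter windows of this length (1.47%) held it. AACCACA, which 3.49% of promoters held, was found in Gzmc (-175), Gzmf (-196), Gzmd (-175), Gzmg (-191), Gzme (-176), Gzmb (-34) and Gzma (-51). TGACTCA was in the Gzmb window alone of these 9 granzymes, at -58, against 3.66% of promoters. The 5 windows of Gzmc, Gzmd, Gzme, Gzmf and Gzmg shared 76.5% to 94.5% of their bases pair by pair, and 39.5% to 43.5% with Gzmb. These matches describe letters in a window, not bound sites.

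Because the genes are alike, their transcripts were checked for stretches that a read could not place. No 90-base window of Gzmc, Gzmf, Gzma, Gzmb, Gzmk or Gzmn was shared with another granzyme. The share was 2.17% in Gzmd, 1.59% in Gzmg and 0.967% in Gzme, so the counts of these 3 genes carry an added uncertainty. The windows were counted over the whole transcript, and where the shared ones lie was not examined. With 5' libraries, the size of this uncertainty cannot be read from these shares.

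The deposited files held 3854 and 9194 barcodes with 14170828 and 50921793 UMIs, of which 3657 and 8821 barcodes were kept, at medians of 2686 and 4224 UMIs. Positive cells were deeper than zero cells, with median UMIs of 6578 against 2780 in wild-type and 6270 against 3735 in knockout cells, and median gene numbers of 2395 against 1255 and 1969 against 1464. Levels below are UMIs summed over a class in a library, per 1000000 UMIs of that class (counts per 1000000, CPM). 1 UMI in positive cells is worth 3.78 CPM in the wild-type and 3.32 CPM in the library labelled knockout. The libraries shared 46 barcodes, among them 1 positive cell.

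Fcgr2b RNA was not absent from the library labelled knockout. It was lower there in myeloid and B cell barcodes, with overlapping intervals in B cells, and higher in zero cells. In myeloid barcodes without a Cd3 UMI, wild-type cells had 455 UMIs (335 CPM, 305 to 367) and cells labelled knockout 3569 UMIs (217 CPM, 210 to 224). In B cell barcodes it was 124 CPM (91.7 to 165) and 91.1 CPM (71.7 to 114). Zero cells had 7 and 60 UMIs, 5.79 and 13.3 CPM, and positive cells 0 and 2 UMIs. No source used here states which part of the gene is deleted, and whether these counts bear on the deletion was not tested. The word knockout below therefore names a library by its label, and each direction between the libraries rests on that label.

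The T cell label was checked on genes the gate did not use. A Trac UMI was seen in 29 of 33 wild-type and 35 of 43 knockout positive cells, and a Trbc1 or Trbc2 UMI in 32 and 42. The gate itself required Cd8a or Cd8b1, so their presence is no check. Cd8a (the CD8 alpha chain) was 813 and 862 CPM in positive cells and 840 and 704 CPM in zero cells. The NK cell receptor gene Ncr1 had no UMI in any positive cell, which allows up to 9.09% of 33 and 6.98% of 43 cells with an Ncr1 UMI and sets no limit on cells that express it at low level. The gamma-delta T cell receptor gene Trdc was seen in 1 wild-type positive cell, with 18 UMIs.

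Markers of other cells were lower in positive than in zero cells for some lists and higher for others. The 14 macrophage markers summed to 68.1 and 209 CPM, against 168 and 369 CPM in zero cells, with 4 and 12 of them detected and Fcgr1 and Ms4a7 at 0 in knockout positive cells. The 8 NK markers summed to 170 and 46.4 CPM, against 98.4 and 58.8 CPM, so that they were higher in positive cells of the wild-type library. The 10 gamma-delta T cell markers summed to 178 and 66.3 CPM, against 100.1 and 57.0 CPM, with 5 and 3 detected. The 6 CD4 or regulatory T cell markers summed to 321 and 235 CPM, against 146 and 128 CPM, and most of that was Il2ra (295 and 216 CPM in positive cells), which activated CD8 T cells also express. The defining genes Cd4 and Foxp3 were at 0 by the gate. Their part in the results was not tested. Zero cells held more of 2 other lists. The 11 dendritic cell markers summed to 1684 and 1570 CPM in zero cells and to 22.7 and 133 CPM in positive cells. The 10 mast cell or basophil markers summed to 2211 CPM in wild-type zero cells, 872 CPM of it Mcpt1, and to 67.2 CPM in knockout zero cells, 34.0 CPM in wild-type and 3.32 CPM in knockout positive cells.

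Positive cells were 7.55% of gated CD8 cells in the wild-type library (33 of 437, exact binomial interval 5.25 to 10.4%) and 3.71% in the library labelled knockout (43 of 1158, 2.70 to 4.97%), a ratio of 0.492 (0.305 to 0.799). With at least 5 UMIs required, the shares were 5.26% (23 cells, 3.37 to 7.79%) and 1.64% (19 cells, 0.991 to 2.55%), a ratio of 0.312 (0.161 to 0.598). Free RNA in the droplets sets a background for such counts. Among myeloid barcodes without a Cd3 UMI, at median depths of 3715 and 4799.5 UMIs, 0 of 336 in the wild-type library had at least 2 UMIs of the 2 genes, which allows a share of up to 0.893%, and 27 of 2946 (0.916%, 0.605 to 1.33%) in the library labelled knockout did. None of either had 5 or more, which allows up to 0.102% in the library labelled knockout. Among B cell barcodes without a Cd3 UMI, 0 of 83 and 1 of 148 (0.676%, 0.0171 to 3.71%) had at least 2, and that 1 knockout barcode had 177 Gzmc UMIs and 8 cycling UMIs among 18717. Thinned to 1000 UMIs per cell, the shares were 4.55% and 0.876%, a ratio of 0.193.

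The threshold cut through cells of low count in the library labelled knockout. Exactly 2 UMIs, the lowest count inside the threshold, were found in 3 wild-type and 18 knockout cells, and exactly 1, just outside it, in 35 and 60 cells. From 2 to 4 UMIs there were 10 and 24 positive cells, and from 5 upward 23 and 19.

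Among themselves the positive cells differed widely in the 2 genes that chose them. Wild-type cells had from 2 to 707 UMIs of Gzmc and Gzmf with a median of 15, and knockout cells from 2 to 348 with a median of 4. In each library the 3 highest cells held most of these UMIs, 65.2% and 64.2%. Gzmc (chr14:56231441-56234656) gave 787 UMIs (2976 CPM) in the wild-type and 371 UMIs (1230 CPM) in the library labelled knockout. Gzmf (chr14:56205263-56211417) gave 1784 UMIs (6747 CPM) and 973 UMIs (3227 CPM). Both genes were seen in 20 of 33 wild-type cells (60.6%, 42.1 to 77.1%) and 15 of 43 knockout cells (34.9%, 21.0 to 50.9%). Gzmf alone was seen in 7 and 22 cells, and Gzmc alone in 6 and 6. The highest wild-type cell had 93 Gzmc and 614 Gzmf UMIs, and the next 258 and 367.

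**Figure D1:**
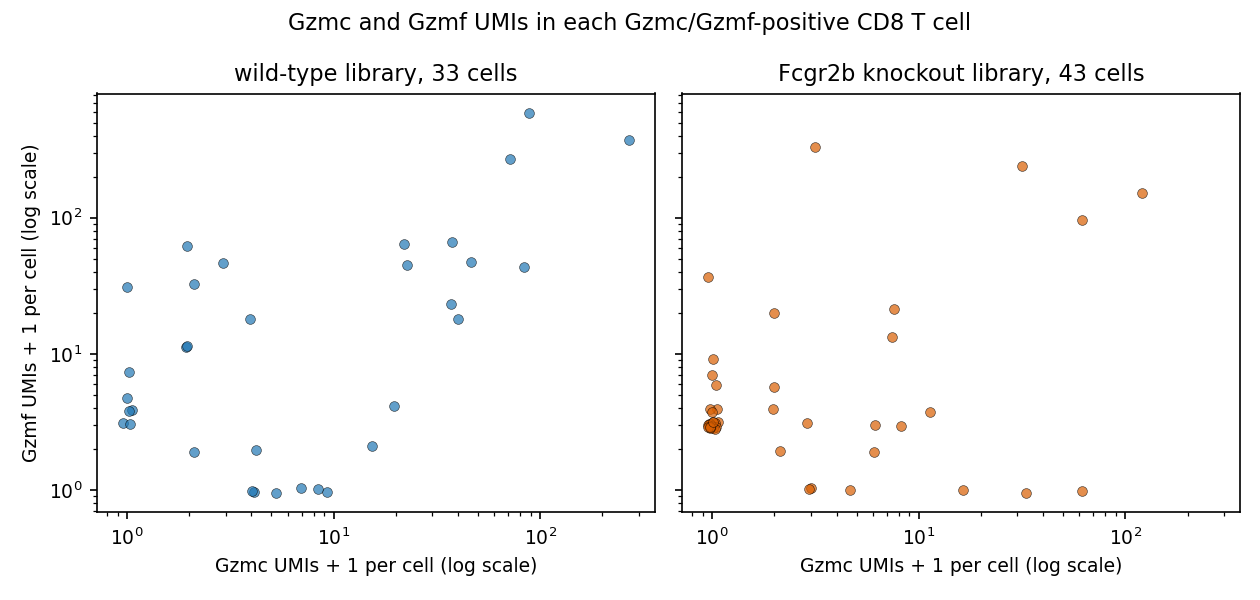
UMIs of Gzmc (horizontal) and Gzmf (vertical) in each positive CD8 cell, both plus 1 on log axes, 1 point per cell, shifted slightly at random so that equal counts can be seen. Knockout cells gather at low counts, with 18 of 43 at exactly 2 UMIs in all, while wild-type cells have a median of 15.

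For each gene, the difference between positive and zero cells is given as a log2 ratio of CPM with 10 CPM added to each, so that ratios of low genes are understated, and a gene was past the fold when the ratio was at least 1 in both libraries. Of 3301 genes that reached 50 CPM in any of the 4 sums, 22 were higher (0.666%) and 59 lower (1.79%) in positive cells. The median of all these genes was -0.16 and -0.11, so most genes lay below 0 in each library. The share of all genes above or below 0 in both libraries was not counted. Counts of list genes above or below 0, given below, therefore have no background beside them and are a description only. Scaling by trimmed mean of M values (TMM) gave 29 higher and 48 lower. Depth differed between the classes as given above, and its part in these differences was not tested beyond the settings in the closing section.

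Other granzymes were among the genes higher in positive cells. Gzma (granzyme A, chr13:113093825-113100981) ranged from 0 to 518 UMIs per 10000 in single wild-type positive cells with a median of 57.9, and from 0 to 523 with a median of 4.04 in knockout positive cells. Its summed level was 9727 CPM in positive and 1412 CPM in zero cells of the wild-type library (6.89-fold, 6.48 to 7.33), and 11860 and 1727 CPM in the library labelled knockout (6.87-fold, 6.6 to 7.15). The fold was alike in the libraries although the cells were not, since 28 of 33 wild-type but 23 of 43 knockout positive cells had any Gzma UMI, against 125 of 369 and 476 of 1055 zero cells. In the library labelled knockout 1 cell gave 28.4% of the Gzma UMIs. Gzmb (granzyme B, chr14:56258838-56262260) was 2821 against 1357 CPM (2.08-fold, 1.90 to 2.27) and 4312 against 1453 CPM (2.97-fold, 2.79 to 3.15). The Gzmb ratio in the wild-type library was at 1.05 on the log2 scale and was under 1 in 6 alternative settings, at 0.73 in cells with at least 5000 UMIs.

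The neighbours Gzmd, Gzmg and Gzme were far higher in positive than in zero cells of the wild-type library. Gzmd was 1244 CPM (329 UMIs) in wild-type positive cells and 4.13 CPM in zero cells (301-fold, 128 to 933), and 26.5 CPM (8 UMIs) and 1.33 CPM in the library labelled knockout (20.0-fold, 6.09 to 70.0). Gzmg was 609 CPM (161 UMIs) and 1.65 CPM in the wild-type library, and 46.4 CPM (14 UMIs) and 1.33 CPM in the library labelled knockout. Gzme was 420 CPM (111 UMIs) against 0.827 CPM, and in the library labelled knockout 6.63 CPM (2 UMIs) against 1.77 CPM, which did not pass the fold. Few cells carried these counts. A UMI of any of the 3 was seen in 10 of 33 and 10 of 43 positive cells, against 7 of 369 and 19 of 1055 zero cells, and 1 wild-type cell gave 41.3% of the Gzmd UMIs. In the library labelled knockout 1 cell gave 78.6% of the Gzmg UMIs. There, 5 of the 7 positive cells with a Gzmd UMI had exactly 2 Gzmc and Gzmf UMIs. At 5 or more, 2 of its 19 cells had Gzmd, with 3 UMIs in all (log2 1.20 over zero cells). Without the 3 cells of each library highest in Gzmc and Gzmf, the log2 ratios were 3.97 and 1.36 for Gzmd and 2.22 and 0.64 for Gzmg. Gzmn had no UMI in positive or zero cells of either library.

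Of 18 measured genes of the granzyme and cytotoxic granule list 4 were past the fold upward (Gzma, Gzmb, Gzmd and Gzmg) and none downward, with medians of 0.28 and 0.25. Gzmk, the granzyme of memory-like CD8 T cells, was 45.4 CPM in positive and 54.6 CPM in zero cells of the wild-type library, and 202 and 165 CPM in the library labelled knockout. Prf1 (perforin) was 367 against 161 CPM and 272 against 171 CPM, log2 1.14 and 0.64. Serpinb9, an intracellular inhibitor of granzyme B, was at 0.81 and 0.09. Of 6 serpin and inhibitor genes, the protease inhibitor Cst3 was the only one past the fold, and it was lower (-2.43 and -1.05). Zero cells held more RNA of macrophage and dendritic cell markers, as given above, and its part in the Cst3 values was not tested.

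Interferon-induced transmembrane genes were higher in positive cells. Ifitm1, which restricts virus entry, ranged from 0 to 200 UMIs per 10000 in wild-type positive cells (median 52.9) and from 0 to 161 in knockout cells (median 31.1). It was 4705 against 848 CPM (5.55-fold, 5.11 to 6.04) and 6640 against 1057 CPM (6.28-fold, 5.96 to 6.62). Ifitm2 was at 2.14 and 2.55 on the log2 scale, and Ifitm3 at 1.26 and 1.34. The other interferon genes did not follow these 3. Of 18 genes of the interferon response list 14 were below 0 in both libraries, with medians of -1.07 and -0.49. Of the 18, 0 passed the fold either way, which the shares of 0.666% and 1.79% over all genes would also give.

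Genes of innate-type receptors followed. Fcer1g, the Fc receptor gamma chain that carries an activating ITAM, was 533 against 116 CPM (4.61-fold, 3.62 to 5.86) and 736 against 88.2 CPM (8.35-fold, 7.05 to 9.86), with a UMI in 16 of 33 and 22 of 43 positive cells and in 36 of 369 and 157 of 1055 zero cells. Klra5, a Ly49 receptor, was 121 against 10.7 CPM and 391 against 42.7 CPM, log2 2.66 and 2.93. The other adaptor of this kind, Tyrobp, was lower (18.9 against 58.7 CPM and 66.3 against 143 CPM), so of 11 receptors and adaptors of the list 2 were higher and 1 lower. Klrd1, the CD94 chain, was at 0.92 and 0.95. Fcer1g and Tyrobp are also myeloid genes, and the part of myeloid RNA in these values was not tested. The macrophage markers are given above.

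AA467197 (Nmes1), a mitochondrial protein gene, was 620 against 136 CPM and 438 against 94.2 CPM, log2 2.11 and 2.10. Il2ra, the IL-2 receptor alpha chain, was 295 against 108 CPM and 216 against 98.6 CPM, log2 1.37 and 1.05, the only one of 19 cytokine receptor and STAT5 target genes past the fold upward. S100a4 (1.32 and 1.24) and Lgals3 (1.16 and 1.18), a calcium-binding protein and a galectin of activated and motile cells, passed among 17 S100, annexin and galectin genes, of which 13 were above 0 in both libraries, with medians of 0.59 and 0.48. Spp1 (osteopontin, 4.69 and 1.25), Car2 (carbonic anhydrase 2, 2.80 and 1.27) and Gstm5 (2.33 and 1.27) passed on few counts. In the wild-type class 1 cell gave 57.9% of the Spp1 UMIs, and a different cell gave 66.7% of the Car2 UMIs. With cells that had a Trdc UMI left out, Car2 was at 1.39 and 1.31.

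Among the lower genes, the chemokines Ccl3, Ccl4 and Ccl5, which attract other leukocytes, stood far down. Ccl5 ranged from 0 to 119 UMIs per 10000 in wild-type positive cells with a median of 0, and from 0 to 298 with a median of 7.97 in knockout positive cells. It was 284 against 4652 CPM in the wild-type library (16.4-fold lower, 13.1 to 20.9) and 3410 against 9873 CPM in the library labelled knockout (2.90-fold lower, 2.72 to 3.08). A Ccl5 UMI was seen in 12 of 33 and 30 of 43 positive cells, against 301 of 369 and 949 of 1055 zero cells. Ccl4 was 182 against 1083 CPM and 425 against 1963 CPM, and Ccl3 22.7 against 195 CPM and 86.2 against 510 CPM. Ifng, the effector cytokine of CD8 T cells, did not pass (234 against 380 CPM and 302 against 529 CPM).

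Genes of precursor and memory states were lower too. Tcf7, the transcription factor of stem-like T cells, had 1 UMI (3.78 CPM) in wild-type positive cells against 69.5 CPM in zero cells, and 4 UMIs (13.3 CPM) against 48.8 CPM in the library labelled knockout. Klf2 and Klf3, factors of quiescent and recirculating cells, were at -1.85 and -1.37 and at -2.48 and -1.35. These 3 were past the fold among 12 stem-like and memory genes, and none was higher. Tox, the factor of exhausted T cells, was 7.56 against 121 CPM and 13.3 against 48.2 CPM. With it, Nr4a1 (-1.29 and -1.16) and Irf4 (-1.30 and -1.26), both induced through the T cell receptor, were lower among 24 exhaustion and effector factors, of which 16 were below 0 in both libraries.

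Of 12 inhibitory receptor genes 0 were past the fold (medians -0.01 and 0.06), a count that the shares of 0.666% and 1.79% over all genes would also give. Cd244a, the receptor 2B4, came closest, at 87.0 against 25.6 CPM (3.39-fold, 1.89 to 6.01) and 39.8 against 15.5 CPM (2.57-fold, 1.27 to 4.78), log2 1.44 and 0.97. Pdcd1, which encodes the PD-1 receptor that the antibody binds, was 314 against 255 CPM (1.23-fold, 0.955 to 1.58) and 279 against 293 CPM (0.951-fold, 0.754 to 1.19). Havcr2 (TIM-3) was 106 against 96.7 CPM and 123 against 120 CPM. Lag3 was at -0.27 and -0.20 and Tigit at -0.61 and -0.89. These intervals bound the ratio for Pdcd1 under 2-fold in both libraries, for counting error only.

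Most immediate-early and receptor signalling genes lay below 0, and of the heat shock genes the inducible pair passed. Fos was 52.9 against 237 CPM and 53.1 against 200 CPM, and with Zfp36l1 (-1.72 and -1.22) it was past the fold among 19 AP-1 and immediate-early genes, 18 of which were below 0 in both libraries. Hspa1b and Hspa1a, the inducible heat shock protein 70 genes, were at -2.30 and -1.87 and at -1.92 and -1.70, the 2 of 27 chaperone genes past the fold, while 12 of the 27 were above and 8 below 0 in both libraries. Cd5, a brake on T cell receptor signals, and Nfkbid were the 2 of 22 T cell receptor signalling genes past it, both lower, and 18 of the 22 were below 0 in both libraries. All 8 measured chemokine and sphingosine receptors were below 0, with Cxcr4 (-2.99 and -1.52) and Cxcr6 (136 against 283 CPM and 103 against 306 CPM) past the fold, and the integrin gene Itga4 was at -1.79 and -1.87.

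The genes with the largest negative ratios, Cd74 (-5.37 and -3.29), H2-Eb1 (-4.78 and -3.22), H2-Aa (-4.50 and -3.76) and H2-Ab1 (-4.38 and -2.56), encode MHC class II antigen presentation, and Il1b (-2.85 and -2.10) is a monocyte cytokine gene. These are markers of other cells, and dendritic cell markers in zero cells were high as given above. An H2-Aa UMI was seen in 11 of 369 zero and 1 of 33 positive cells of the wild-type library, which are similar shares. In the library labelled knockout it was seen in 232 of 1055 zero and 4 of 43 positive cells. A doublet caller run as an alternative removed 10 and 36 zero cells and no positive cell, and H2-Aa was then at -3.86 and -2.52. The part of such cells in the result was not tested further.

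Glycolysis (15 genes, medians 0.35 and 0.13), MYC and polyamine (21 genes, 0.17 and 0.08), chaperone (27 genes, 0.07 and 0.12), costimulatory (8 genes, -0.17 and -0.06) and cell cycle genes outside the gate (15 genes, -0.37 and -0.39) had none past the fold upward. The share of 0.666% over all genes would also give none in lists of this size. The polyamine gene Amd1 was lower at -1.25 and -1.52. Near Fcgr2b on chromosome 1, Fcer1g was higher and Slamf1 (-1.94 and -1.38) and Ifi209 (-1.90 and -1.52) were lower among 16 genes.

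**Figure D2:**
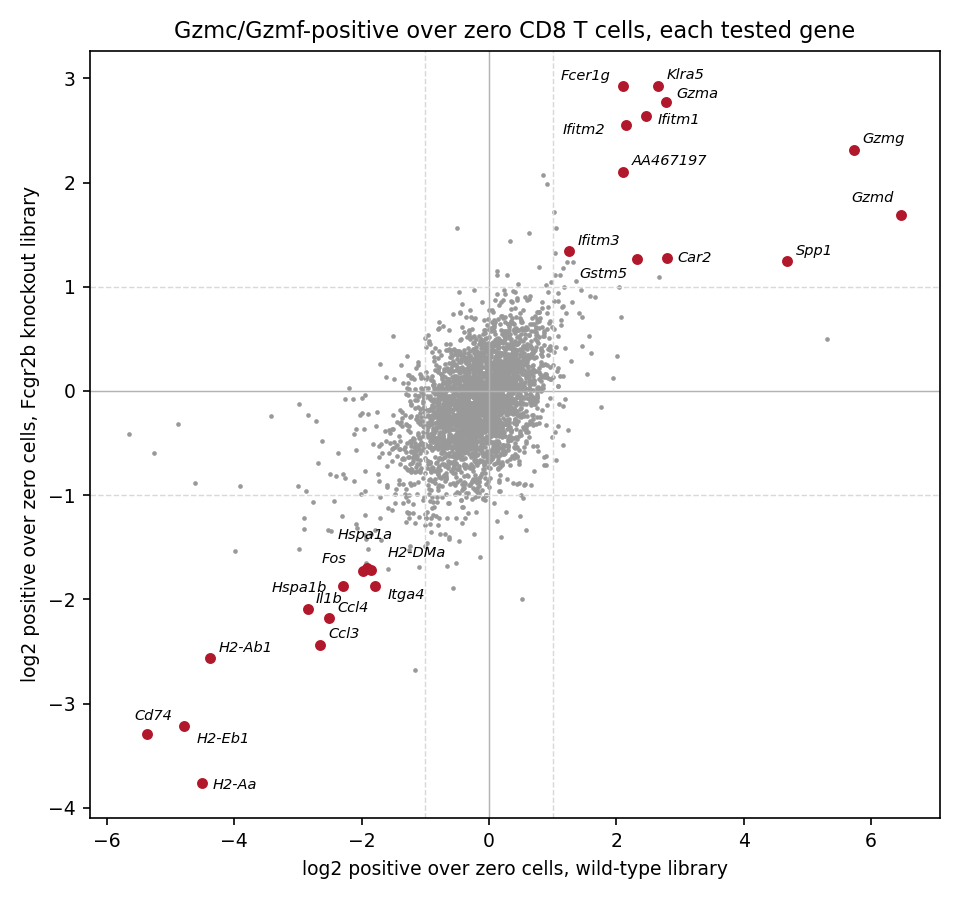
Log2 ratio of positive over zero cells (CPM plus 10) in the wild-type (horizontal) and knockout library (vertical), 1 point for each of 3301 genes, dashed lines at -1 and 1, with the 12 highest and 12 lowest named genes in red. Gzma, Ifitm1, Klra5, Fcer1g and AA467197 lie above 2 in both libraries, and Gzmd and Gzmg lie farther out in the wild-type library.

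The levels were then followed across 5 bins of Gzmc and Gzmf UMIs per cell (0, 1, 2 to 4, 5 to 9, and 10 or more). Ccl5 was lower with every bin in both libraries, from 4652 over 2518, 719 and 548 to 114 CPM in the wild-type library, and from 9873 over 7889, 7046 and 1672 to 934 CPM in the library labelled knockout. The libraries differed in the bin of 2 to 4 UMIs. There Ccl5 was 719 CPM in the wild-type library, near its higher bins, and 7046 CPM in the library labelled knockout, near the cells with 0 or 1 UMI. Ifitm1 was 848, 1434, 5490, 4424 and 4497 CPM in the wild-type bins and 1057, 1468, 2331, 6886 and 10651 CPM in the knockout bins. Gzma was 1412, 2720, 10577, 3371 and 10285 CPM in the wild-type bins, with a dip at 5 to 9 UMIs, and 1727, 2219, 2912, 5500.2 and 24272 CPM in the knockout bins. AA467197 in the library labelled knockout was 94.2, 194, 17.6, 557 and 772 CPM, so the bin of 2 to 4 lay below the zero cells. The wild-type bins of 2 to 4 and 5 to 9 held 10 and 4 cells, and the knockout bins 24 and 7, so single cells weigh heavily. They do so for Ccl5 in the knockout bin of 10 or more as well. There, 1 of 12 cells had 105 Ccl5 UMIs and each other cell at most 2. In the knockout bin of 5 to 9, 1 cell had 87 and another 26, and each other cell at most 2.

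**Figure D3:**
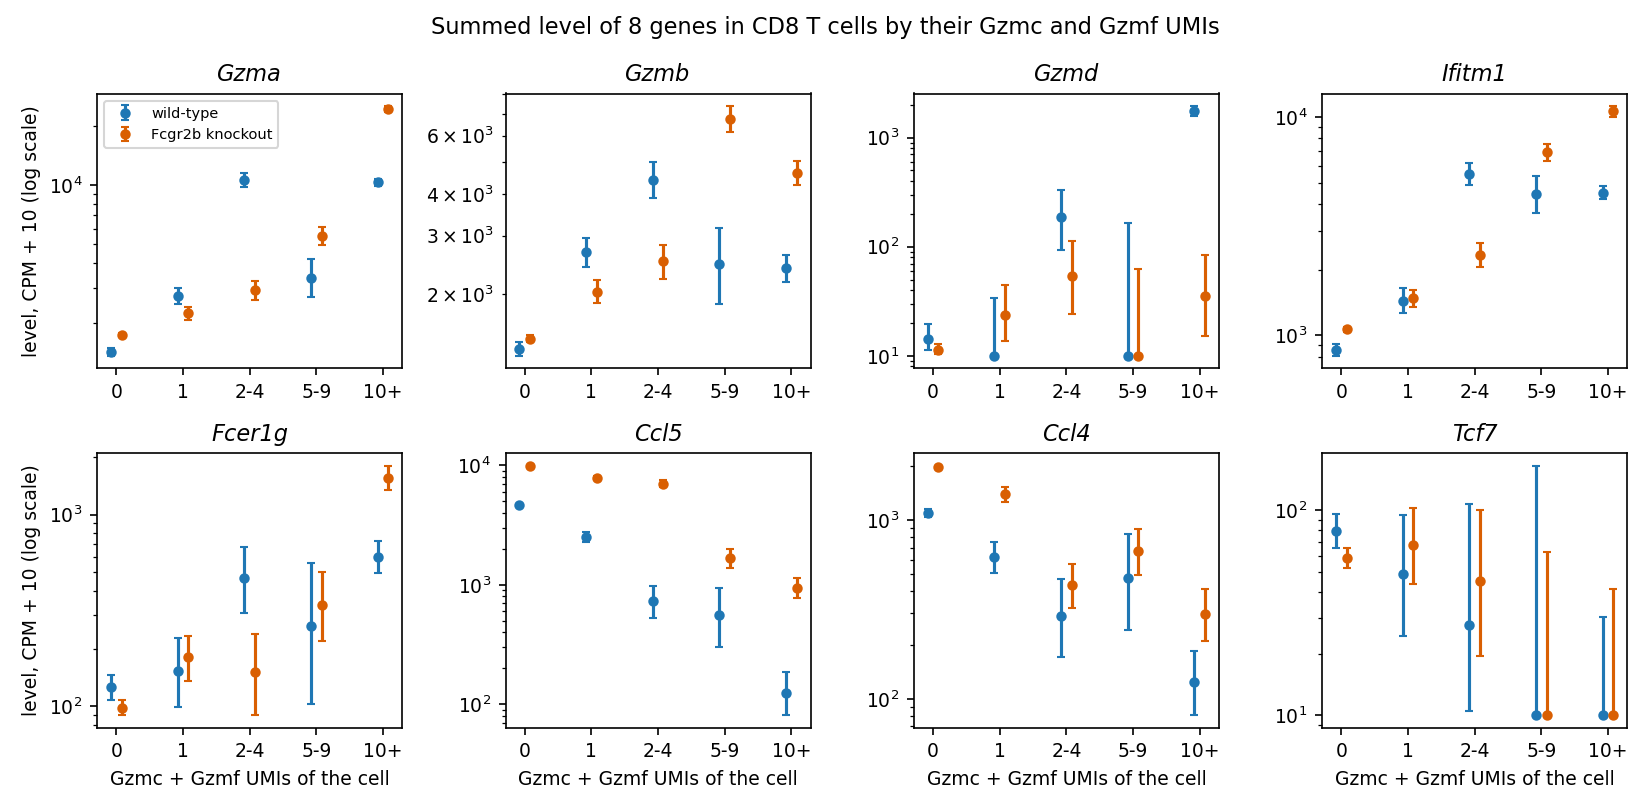
Level (CPM plus 10, log axis) of 8 genes in CD8 cells by their Gzmc and Gzmf UMIs, points for the wild-type (blue) and knockout (orange) sums with exact Poisson 95% intervals. Ccl5 and Ccl4 are lowest at 10 or more UMIs in both libraries (Ccl5 114 and 934 CPM, the latter mostly from 1 cell). Gzmd reaches 1737 CPM in the wild-type and 25.5 CPM in the library labelled knockout there.

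Counted by cell, low-count positives of the library labelled knockout were split. Of its 24 cells with 2 to 4 UMIs, 17 had at least 5 Ccl5 UMIs and 10 at least 5 Ifitm1 UMIs, 5 of them both. Of its 19 cells with 5 or more, 3 had at least 5 Ccl5 UMIs and 18 at least 5 Ifitm1 UMIs. In the wild-type library the counts were 3 and 8 of 10 cells, and 2 and 18 of 23 cells. Among zero cells, 233 of 369 and 834 of 1055 reached 5 Ccl5 UMIs, and 55 and 176 reached 5 Ifitm1 UMIs. The knockout cells with exactly 2 UMIs had at least 5 Ccl5 UMIs in 14 of 18. Since 27 knockout myeloid barcodes also reached 2 to 4 UMIs of Gzmc and Gzmf, the main results are given again for cells with 5 or more.

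**Figure D4:**
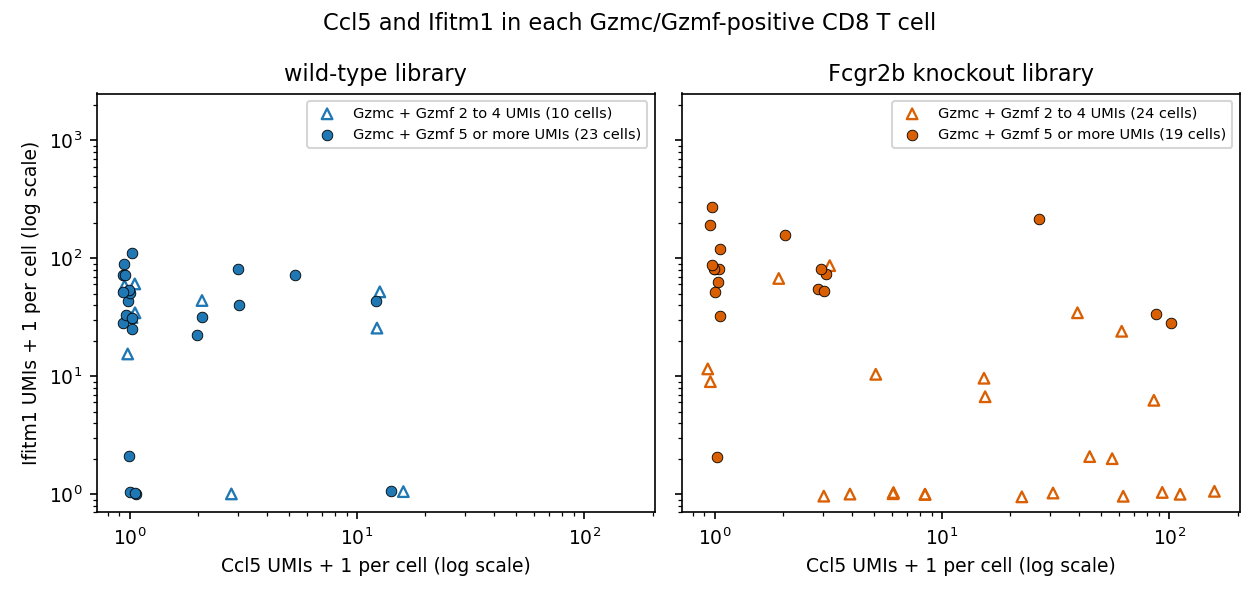
Ccl5 (horizontal) and Ifitm1 UMIs (vertical) of each positive cell, both plus 1 on log axes and shifted slightly at random, triangles for 2 to 4 and circles for 5 or more Gzmc and Gzmf UMIs. In the library labelled knockout 18 of 19 circles have at least 5 Ifitm1 UMIs, while triangles spread to high Ccl5 counts.

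In cells with 5 or more UMIs the differences from zero cells were as large or larger for most of these genes. Ifitm1 was 4489 and 9248 CPM (log2 2.39 and 3.12), Gzma 9494 and 17276 CPM (2.74 and 3.32), Fcer1g 554 and 1097 CPM (2.17 and 3.49), and AA467197 670 and 692 CPM (2.22 and 2.75). Ccl5 was 164 and 1209 CPM (-4.74 and -3.02). Tcf7, Klf3 and the residency integrin gene Itgae had no UMI in either library. Of the 22 higher genes 19, and of the 59 lower genes 50, were past the fold in these cells too. Gzmb was at 0.81 and 1.89. Cd244a, the inhibitory receptor gene that came closest in all positive cells, was past the fold here at 1.44 and 1.43, on 18 and 11 UMIs.

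Between the libraries, positive cells of the one labelled knockout had less Gzmd, Gzme and Gzmg and more Ccl5 and interferon-induced RNA. Of 2813 genes that reached 50 CPM in either sum, 108 were at a log2 ratio of knockout over wild-type of 1 or more (3.84%) and 165 at -1 or less (5.87%). In zero cells, which were summed over more cells, the counts were 20 (0.667%) and 39 (1.3%) of 2998 genes. With TMM scaling, which moved the median of all genes from -0.05 to 0.06, the split in positive cells was 147 higher and 119 lower. These compare 2 libraries, not conditions.

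Gzmd was 46.9-fold lower in knockout positive cells (23.5 to 110), Gzmg 13.1-fold lower (7.59 to 24.5) and Gzme 63.3-fold lower (17.1 to 529). These ratios rest on 9, 6 and 5 wild-type cells with a UMI. Without the 3 highest cells of each library, Gzmd was at -2.92 and Gzmg at -1.62 on the log2 scale, against -5.10 and -3.46 with them. In the same comparison Gzma was at 0.29, Gzmb at 0.61 and Prf1 at -0.42. Gzmk was higher (1.94), as it was in zero cells (1.44). At 5 or more UMIs Gzmd, Gzmg and Gzme were at -5.90, -3.31 and -5.15, Gzma at 0.86, Prf1 at 0.04 and Gzmk at 2.36, and Gzmb at 1.18 was then past the fold.

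Ccl5 was 284 CPM in wild-type and 3410 CPM in knockout positive cells, a log2 ratio of 3.54 (fold interval 9.50 to 15.4), against 1.08 in zero cells. In cells with 5 or more UMIs it was 164 and 1209 CPM, a log2 ratio of 2.81. That knockout level rested mostly on 3 of 19 cells, with 105, 87 and 26 of the 227 Ccl5 UMIs. No Ccl5 UMI was seen in 16 of the 23 wild-type and 11 of the 19 knockout cells. Ccl3 (1.56) and Ccl4 (1.18) were also higher, with 1.34 and 0.85 in zero cells and 1.37 and 1.41 at 5 or more UMIs. Of the Ccl3 UMIs in knockout positive cells, 1 cell gave 53.8%. Whether positive and zero cells differ in these ratios between the libraries was not tested, with 1 library per genotype.

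The interferon-induced genes Ifi27l2a (269 and 1582 CPM, 5.89-fold, 4.58 to 7.67), Isg15, a ubiquitin-like protein gene (30.3 and 176 CPM, 5.81-fold, 2.74 to 14.1), Bst2, the tether of budding virus (71.9 and 242 CPM), and Rnf213 (71.9 and 272 CPM) were higher in the library labelled knockout. In zero cells their log2 ratios were 0.38, 0.51, 0.52 and -0.00. At 5 or more UMIs the ratios were 2.05, 2.96, 1.56 and 1.69. Of 15 interferon genes measured, 4 were past the fold upward (Isg15, Ifi27l2a, Bst2 and Ly6a) and 0 downward, with a median of 0.53 in positive and 0.34 in zero cells. Within each library Ifi27l2a was lower in positive than in zero cells, at -2.62 and -0.48. Not all of these genes were, since Ly6a in cells with 5 or more UMIs was at -0.12 and 0.63 over zero cells. Macrophage markers were also higher in knockout than in wild-type positive cells (209 and 68.1 CPM), and their part in the result was not tested.

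A few NK-type receptor genes were higher in the library labelled knockout. Klrc2, the activating NKG2C chain, was 60.5 and 255 CPM in positive cells (4.22-fold, 2.44 to 7.75) with a log2 ratio of 1.91, and 2.15 in zero cells. Klra5 was at 1.62 and 1.34. With Tyrobp (1.40 and 1.15) and Cd7 (2.19 and 0.00), they were 4 of 11 genes of their list past the fold, and none was past it downward, with medians of 0.76 in positive and 0.05 in zero cells. Fcer1g was at 0.46 and -0.36. At 5 or more UMIs Klrc2 was at 1.63, Klra5 at 2.31, Tyrobp at 1.56 and Cd7 at 2.21. The NK markers, a separate list given above, summed lower in the library labelled knockout in both classes.

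Lower in the library labelled knockout were the metallothionein genes Mt1 (980 and 232 CPM, 4.22-fold lower, 3.23 to 5.58) and Mt2 (280 and 63.0 CPM), which bind zinc and copper. The polyamine synthesis genes Odc1 (367 and 73.0 CPM, 5.03-fold lower, 3.14 to 8.39) and Srm (102 and 16.6 CPM) were lower as well. In zero cells the log2 ratios were -0.67 for Mt1, -0.95 for Mt2, -1.45 for Odc1 and -0.16 for Srm. In cells with 5 or more UMIs they were -2.09, -1.85, -2.72 and -2.03. Spp1 was at -3.57, Slx1b at -3.07 and Eif3j1 at -1.84, and Slx1b was also lower in zero cells (-2.10). Higher genes of other kinds were Arap2 (1.79) and Abhd17b (1.67), at -0.24 and 0.27 in zero cells. Inhibitory receptors had none of 11 past the fold, and Pdcd1 was at -0.17. The shares of 3.84% higher and 5.87% lower over all genes can also give none in a list this short.

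**Figure D5:**
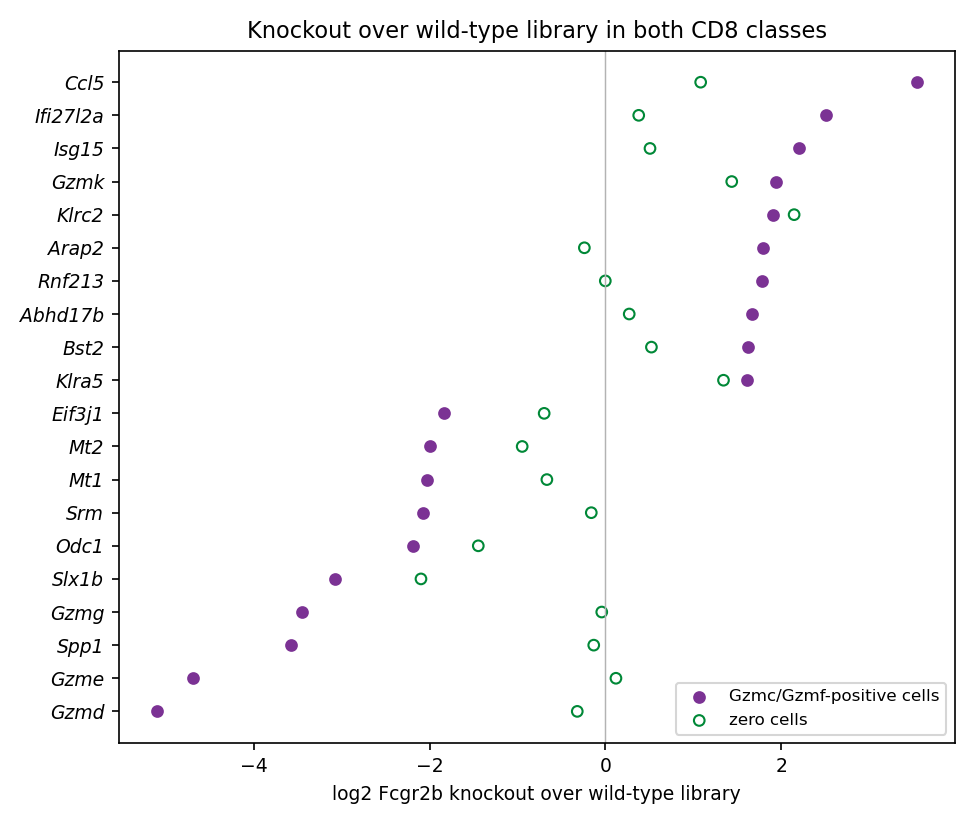
Log2 ratio of the knockout over the wild-type library (CPM plus 10) for the 10 highest and 10 lowest named genes in positive cells (filled), with the same ratio in zero cells (open). Gzmd, Gzme, Gzmg and Spp1 lie at -3.46 or lower in positive cells and within 0.32 of 0 in zero cells, while Klrc2 and Gzmk lie close together in both classes. The 3 granzymes were at 4.13 CPM or less in zero cells, where the 10 CPM added keeps any ratio near 0. Without it, Gzmd in zero cells was 3.12-fold lower in the library labelled knockout (0.753 to 12.3).

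T cell receptor V genes were counted from the same libraries, and the separate receptor libraries were not analysed here. A Trbv UMI was seen in 4 of 33 wild-type positive cells (12.1%) and 30 of 43 knockout positive cells (69.8%), a gap also present in zero cells (36 of 369, 9.76%, and 497 of 1055, 47.1%). So only the library labelled knockout allowed a description. Its 30 cells held 14 different leading Trbv genes, the most common Trbv13-1 in 5 cells and Trbv13-3 in 4 (13.3%, 3.76 to 30.7%). In zero cells Trbv13-3 led in 142 of 497 cells (28.6%, 24.6 to 32.8%), and among 15 positive cells with 5 or more UMIs and a Trbv UMI it led in 0. V genes do not identify clones, so the number of clones is not known from these counts. Unlike Trbv, a Trbc1 or Trbc2 UMI was seen in similar shares of zero cells (338 of 369 and 943 of 1055). What the Trbv gap means for other genes compared between the libraries was not tested.

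Over the 10 sums (5 bins in 2 libraries), the genes whose log2 level (CPM plus 10) followed that of Gzmc and Gzmf most closely were Lat2 (Pearson r = 0.93), S100a6 (0.90), Fkbp8 (0.89), Fcer1g (0.85), Adam8 (0.85), Gzma (0.85), Ifitm1 (0.84), Nme1 (0.84), Capg (0.83) and Ctsd (0.83). Lat2, an adaptor of Fc receptor signals, was 52.1 CPM in wild-type and 31.2 CPM in knockout zero cells and 136 CPM in both libraries at 10 or more UMIs. The least alike were Resf1 (-0.93), Ttc39b (-0.93), Ier3 (-0.92), Cdkn2aip (-0.89) and Btg1 (-0.88), an antiproliferative gene of resting lymphocytes. The sums share library and depth, with deeper cells in the upper bins, so these values are a description.

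Positive cells held 29.0% and 12.3% of all Gzmc and Gzmf UMIs of their libraries (2571 of 8862 and 1344 of 10886). Of 149 and 210 kept barcodes with at least 2 such UMIs, the criteria taken in order left out 55 and 57 with no Cd3 UMI, 31 and 47 with no Cd8 UMI, 6 and 15 with a Cd4 or Foxp3 UMI, 0 and 9 with more than 2 Lyz2 or C1qb UMIs, and last 24 and 39 with more than 1 cycling UMI. Whatever the other criteria, 40 and 65 had more than 1 cycling UMI. Cycling CD8 cells with these genes were like the positive cells in some genes and not in others. In the 24 and 39 such cells Ifitm1 was 2494 and 3043 CPM, Tyrobp 11.1 and 33.0 CPM, Ccl5 88.8 and 598 CPM, and Ncr1 had no UMI. Gzma was 15254 CPM in the wild-type and 3475 CPM in the library labelled knockout, against 9727 and 11860 CPM in positive cells. Fcer1g was 607 and 194 CPM, against 533 and 736 CPM. Their Gzmd was 537 CPM in the wild-type and 304 CPM in the library labelled knockout, unlike the 1244 and 26.5 CPM of positive cells. Spp1 in them was 85.1 and 523 CPM, against 503 and 33.2 CPM in positive cells. Spp1 was thus higher in the library labelled knockout among cycling cells and in the wild-type library among positive cells. Of the barcodes without a Cd3 UMI, 49 and 21 kept to the limits on Cd4, Foxp3, macrophage and cycling genes, with no Cd8 UMI required and 1 Cd8a UMI in each library. They had Tyrobp at 2204 and 2494 CPM, Ncr1 at 122 and 181 CPM and Ifitm1 at 937 and 1221 CPM.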

How the data were processed

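The deposited files are the authors' UMI counts per gene and cell barcode, not normalized, made with Cell Ranger 6.1.2 per the file headers and with mm10 named in the submitters' processing notes. The annotation release was not given in any source used here. The positive cells and the gene lists were chosen with earlier results of these data known. Barcodes were gated as described, counts were summed per class and library and divided by the class total, and no test was run because each genotype has 1 library. Levels carry exact Poisson, shares exact Clopper-Pearson and ratios exact conditional 95% intervals, and a count of 0 was set at 3 counts for a bound. Doublets were kept, and leaving them out was an alternative. Named genes were a fixed list of granzymes and state genes, the 12 highest and 12 lowest genes between positive and zero cells (by the smaller ratio of the 2 libraries), the 10 highest and 10 lowest between libraries at 100 CPM or more, and up to 4 of each list, leaving out gate, mitochondrial, ribosomal, antigen receptor, predicted and sex-linked genes. The call of genes past the fold was checked on simulated class sums with counting error only, not on simulated cells. Promoters are RefSeq sequences of GRCm38.p6. Python 3.11.15, numpy 2.4.6, scipy 1.17.1 and, for TMM, edgeR 4.0.16 in R 4.3.3 were used.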

Additional observations from a re-analysis of the deposited data

How the results depend on the processing

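Shares of positive cells moved with the UMI limit, to 2.16% at 3 UMIs and 1.64% at 5 in the library labelled knockout. Thinning gave 4.55% and 0.876% with a ratio of 0.193, and keeping cycling cells 10.6% and 5.35%. Counts of genes past the fold depended on depth and on the handling of low levels. Higher genes of positive over zero cells were 74 after thinning to 1000 UMIs, 10 with 50 CPM added and 13 in cells with at least 5000 UMIs, against 22. Lower genes were 102 at 3 UMIs, 137 at 5, 215 after thinning, 94 with 1 and 14 with 50 CPM added, 98 with genes at 20 CPM or more and 109 with no minimum, against 59. Higher genes of the library labelled knockout over the wild-type library were 532 after thinning, 24 with 50 CPM added, 277 at 20 CPM or more, 384 with no minimum and 188 at 5 UMIs, against 108. Lower genes were 1112, 29, 372, 529 and 262, against 165. With 2 UMIs of the V gene required, Trbv was seen in 3.03% and 48.8% of positive cells, and at 5 Gzmc and Gzmf UMIs Trbv13-3 led in 0. The cause of these moves was not tested. Of 29 named genes past the fold between positive and zero cells, 20 remained so after thinning, 20 with 50 CPM added and 25 to 29 in the other settings. After thinning, Gstm5 and Spp1 were at -0.37 and -0.82 in the library labelled knockout. Of 29 past the fold between libraries, 23 to 29 remained. The limits of 5 UMIs for gene counts and 5000 UMIs per cell, leaving out the highest or the 3 highest cells and leaving out shared barcodes were chosen after seeing the data. No paired analysis was possible because each genotype has 1 library. At this depth 1 UMI is 3.78 or 3.32 CPM in positive cells, so genes under about 3 UMIs there could not be ranked.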

Other observations

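Barcodes with at least 2 Gzmc or Gzmf UMIs, a Cd3 UMI and no Cd8 UMI that kept to the limits on Cd4, Foxp3, macrophage and cycling genes, 15 in the wild-type and 14 in the library labelled knockout, had more RNA of some NK-type genes than the CD8 positive cells (Tyrobp 18.9 and 66.3 CPM there, Ncr1 0 in both). Tyrobp, the DAP12 adaptor, was 2053 and 1515 CPM in them, Ncr1 94.2 and 13.7 CPM, and Ifitm1 979 and 901 CPM. Their Gzmc was 5547 and 860 CPM and their Gzmf 819 and 300 CPM, so Gzmc was counted more often than Gzmf there and in barcodes without Cd3 (5381 against 2623 CPM and 7069 against 3835 CPM). In CD8 positive cells, which these same 2 genes chose, Gzmf was counted more often than Gzmc (6747 against 2976 CPM and 3227 against 1230 CPM), and in cycling CD8 cells too (3079 against 1961 CPM and 1210 against 577 CPM). In positive cells the ratio of Gzmf to Gzmc UMIs rested on the highest cells. It was 2.27 and 2.62 with all cells, 1.69 and 1.70 without the highest cell of each library, and 1.48 and 1.12 without the 3 highest. The difference between these classes was not tested. A UMI is counted once per molecule, so these ratios do not depend directly on transcript length, but capture of the 2 transcripts may differ.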
